A study of Mus musculus with 6 samples.

Results

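Wnt ligands, their receptors and the secreted proteins that hold them back were examined in hearts of E12.5 mouse embryos, in 3 libraries labelled as a conditional knockout (CKO) of TRIM28 and 3 from wild-type controls. TRIM28 is a co-repressor of transcription that is recruited to DNA by zinc finger proteins. The members were the rows of the count table whose symbols name a Wnt, a Frizzled, a Dickkopf (Dkk) or a secreted Frizzled-related protein (Sfrp), or are Frzb, Wif1, Lrp5, Lrp6, Ror1, Ror2, Axin2 or Lef1. There were 42 of them among 30619 rows, namely 17 Wnt ligands, 10 Frizzled receptors, 4 co-receptors, 9 secreted antagonists and 2 transcriptional targets. The genotype label of the CKO hearts reads TRIM28 knockdown where their titles read CKO, and the titles were followed. The Cre driver, the strain, the alleles of the controls and the number of hearts in a library are not stated by the labels. No label says that libraries of a group came from separate animals. Xist and Y-linked counts differ between CKO 1 and the other CKO libraries and between control 2 and the other controls. CKO 1 and control 2 thus held different embryos from the rest of their group. For CKO 2 against CKO 3 and control 1 against control 3 no label settles this. Trim28 had 10809 and 6543 counts in CKO 2 and CKO 3 and 12153 and 16581 in control 1 and control 3. Neither pair agreed within sampling noise, and the technical part of the scatter behind the p-values was not tested.

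Wnt proteins are lipid-modified signals that act over short distances. A Wnt that binds a Frizzled together with Lrp5 or Lrp6 stabilises beta-catenin, which enters the nucleus with TCF/LEF factors and switches on genes such as Axin2, whereas a Wnt that binds a Frizzled with Ror1 or Ror2 acts without beta-catenin on cell shape, polarity and movement. In the embryonic heart, Wnt5a and Wnt11 are known for their part in the outflow tract, and beta-catenin signalling for its part in valve cushions and in the growth of the ventricular wall.

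The libraries labelled CKO held 37024246, 34400841 and 39763233 counts and the controls 39702929, 38449175 and 36854002. Trim28 (chromosome 7, 12999114 to 13031035) was measured at 172, 314 and 165 CPM (counts scaled to the size of each library) in CKO 1, 2 and 3 and at 305, 391 and 443 CPM in control 1, 2 and 3. The value of the library labelled CKO 2 fell between those of control 1 and control 2. The difference, a log2 fold change of -0.81 (SE 0.34), did not pass in edgeR (adjusted p = 0.349). With the library labelled CKO 2 left out it was -1.17 (adjusted p = 0.0715). Every direction below rests on the labels. A ribosomal RNA row took 0.79%, 0.672% and 0.563% of the counts in the CKO libraries and 0.522%, 0.222% and 0.126% in the controls. The summed level of 4 Y-linked genes was 99.5, 208 and 208 CPM in the CKO libraries and 80.7, 0.052 and 124 CPM in the controls. Xist, which marks females, had 15232, 7 and 4 counts in the CKO libraries and 24633, 36330 and 17569 in the controls. CKO 1, control 1 and control 3 thus held transcripts of both sexes. CKO 2 and CKO 3 had almost no Xist, and control 2 almost no Y-linked level. The part of sex in the values below was not tested. A fit with log2 Y-linked expression as a covariate cannot decide it, as control 2 lay far under all other libraries on that scale.

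Few Wnt genes passed the test for a difference between CKO and control hearts. Of the 42 members, 36 passed the filter on low counts and could be tested. One of them rose in CKO hearts and none fell, at a Benjamini-Hochberg adjusted p under 0.05 in edgeR's quasi-likelihood test over all 17557 tested genes. The member that rose was Dkk3. That is 2.78% of the tested members, against 4.22% of all tested genes (3.08% higher and 1.14% lower). An unadjusted p under 0.05 was reached by 8 members, 3 higher and 5 lower, which is 22.2% of them against 17.3% of all tested genes. The CKO and control values were apart without overlap in 8 members, 3 with higher and 5 with lower CKO values, again 22.2%, against 22.1% of all tested genes (11.5% higher and 10.6% lower). The median log2 fold change, CKO over control, was -0.03 over the tested members and 0.00 over all tested genes. All log2 fold changes below are CKO over control, and n is 3 libraries per group.

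The sequence in front of the start site is shown for 4 members, because TCF/LEF factors act on genes through such DNA. Axin2 and Lef1 are shown as textbook targets of the pathway, and Fzd7 and Wnt11 as a receptor and a ligand of these hearts with a TCF/LEF core in the window shown. RefSeq windows on GRCm38.p6, the build also called mm10, matched 29 of the 42 members, with 35 start sites. Each line gives the 250 bases before a start site, 5′ to 3′ on the strand of the gene, which is plus for all 4. Capitals mark the core, searched on both strands as CTTTG followed by AA, AT, TA or TT. The windows lie at chr11:108920099-108920348 for Axin2, chr3:131110047-131110296 for the most upstream of 4 Lef1 starts, chr1:59481897-59482146 for Fzd7 and chr7:98834862-98835111 for the first of the Wnt11 starts. The motif, the window and the genes shown were chosen after values had been seen.
Axin2: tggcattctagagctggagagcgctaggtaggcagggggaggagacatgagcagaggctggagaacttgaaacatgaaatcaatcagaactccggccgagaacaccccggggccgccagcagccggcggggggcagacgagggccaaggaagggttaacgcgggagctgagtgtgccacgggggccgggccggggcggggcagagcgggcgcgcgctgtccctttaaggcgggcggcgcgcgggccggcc
Lef1: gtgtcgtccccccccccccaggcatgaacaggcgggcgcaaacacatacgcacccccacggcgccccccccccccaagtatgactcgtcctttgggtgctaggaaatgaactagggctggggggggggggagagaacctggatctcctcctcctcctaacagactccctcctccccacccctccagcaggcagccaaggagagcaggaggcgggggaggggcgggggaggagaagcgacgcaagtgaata
Fzd7: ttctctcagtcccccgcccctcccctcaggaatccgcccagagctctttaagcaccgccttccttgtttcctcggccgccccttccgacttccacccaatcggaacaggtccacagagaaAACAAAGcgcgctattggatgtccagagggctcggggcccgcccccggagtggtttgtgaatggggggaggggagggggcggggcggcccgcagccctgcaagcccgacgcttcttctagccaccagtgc
Wnt11: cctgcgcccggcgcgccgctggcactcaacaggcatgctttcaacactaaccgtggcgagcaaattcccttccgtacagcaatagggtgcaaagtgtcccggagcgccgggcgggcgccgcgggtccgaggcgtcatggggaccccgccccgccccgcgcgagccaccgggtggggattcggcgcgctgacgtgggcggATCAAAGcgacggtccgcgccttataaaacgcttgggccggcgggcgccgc
The core lies 130 bases before the RefSeq start in the Fzd7 window and 51 bases before it in the Wnt11 window, on the minus strand of both. The windows shown for Axin2 and Lef1 hold 0. In GENCODE M21 the genes Fzd7 and Lef1 start further downstream, at 59482424 and 131110471. Of the 3 other Lef1 windows, 1 holds a match, 147 bases before the start (chr3:131156044-131156293), and the other Wnt11 window holds 0. Of all 35 member windows, 5 held a match (14.3%), against 14.8% of 32851 windows of all genes. A match is a run of letters only, and a window without one says nothing of whether the factors act on the gene from elsewhere. The Lef1 window lies inside an exon of the antisense gene Gm43352. The member windows were rich in G and C, with a median of 66.4% against 52.4% over all windows.

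Levels are compared between genes as CPM per kilobase of annotated exon. Of the 42 members, 31 had a mean of at least 1 CPM per kilobase. The antagonist Sfrp1, which binds Wnts through a Frizzled-like domain, stood highest at 97.6, 101 and 87 CPM per kilobase in CKO 1, 2 and 3 and 99.9, 102 and 102 in control 1, 2 and 3. Dkk3, a divergent Dickkopf, followed with a mean of 62.7 and Sfrp2 with 59.9 over the 6 libraries. The ranges of Dkk3 and Sfrp2 crossed, so their order is not settled by these libraries. The next levels were those of the receptors Fzd2 (mean 44.5) and Fzd1 (32.1), the co-receptor Ror2 (20.2) and the ligand Wnt5a (14.6). The 9 antagonists together summed to 227 ± 15.8 CPM per kilobase in CKO hearts and 238 ± 15.6 in controls (SD, n = 3 each), whereas the 17 ligands summed to 40.5 ± 3.21 in CKO hearts and 43.6 ± 2.58 in controls.

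**Figure D1:**
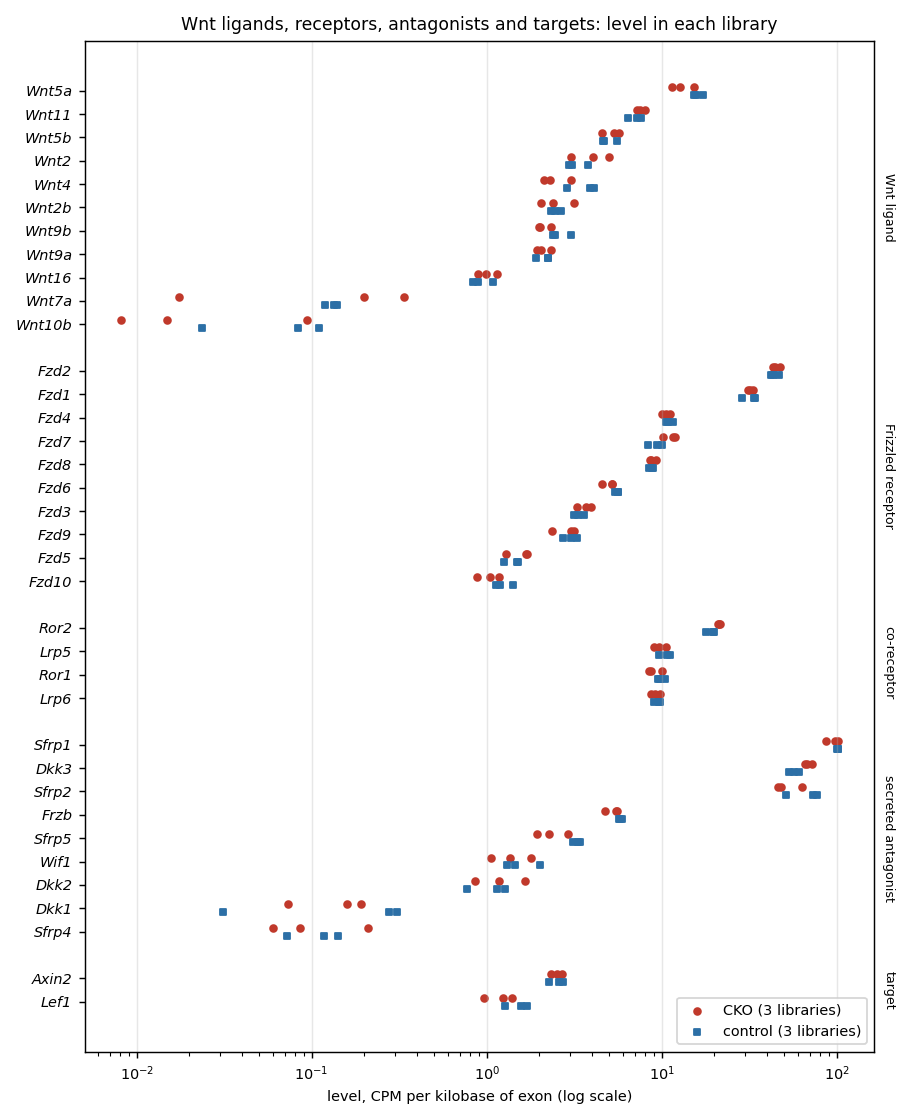
Level of each of the 36 tested members in each library, in CPM per kilobase of exon on a log axis, with CKO libraries as circles above and control libraries as squares below, grouped by role. Sfrp1, Dkk3 and Sfrp2 lie furthest to the right with means between 59.9 and 98.3, and the circles and squares of most genes overlap.

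Among the ligands, Wnt5a and Wnt11 led. Wnt5a, which signals mainly through Ror2, was measured at 89.5, 119 and 99.8 CPM in CKO 1, 2 and 3 and at 123, 120.0 and 135 CPM in control 1, 2 and 3. CKO 1 and 3 lay well under every control, and the library labelled CKO 2 lay just under the lowest control. This was a log2 fold change of -0.29 (SE 0.09, 95% interval -0.50 to -0.08) and did not pass (adjusted p = 0.134). It passed without the library labelled CKO 2 (-0.41, adjusted p = 5.4e-05) and in DESeq2 (-0.29, adjusted p = 0.0194), and over all alternatives the adjusted p ran from 4.9e-05 to 0.803. Predicted genes on the opposite strand, Gm2670 and Gm8398, overlap exons of Wnt5a and Wnt11, and no source says that the counts were made by strand, so reads of such partners cannot be told apart. Wnt5a made up 30.5%, 34.7% and 31.8% of the summed ligand level per kilobase in the CKO libraries and 37.5%, 36.2% and 37% in the controls. Those shares did not overlap (exact permutation test, two-sided, p = 0.1, the smallest that 3 against 3 allows). The test was run on the leading shares of every role but the targets, without adjustment, and most did not reach that p.

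Wnt11, the other outflow tract ligand, stood at 29.7, 33 and 30.9 CPM in the CKO libraries and 29.9, 26.5 and 31.5 CPM in the controls. The groups overlapped, and the log2 fold change was 0.09 (SE 0.09, 95% interval -0.09 to 0.27, adjusted p = 0.661). Its share of the summed ligand level per kilobase was 18.7% ± 0.482 in CKO hearts and 16.2% ± 1.07 in controls (SD, n = 3 each). The exact permutation test gave p = 0.1 (two-sided), again the smallest possible. That sum includes Wnt5a, so the shares of Wnt11 and Wnt5a are not independent.

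Wnt4, a ligand best known from kidney and gonad development, was measured at 8.94, 12.7 and 9.65 CPM in CKO 1, 2 and 3 and at 12.1, 17.3 and 16.3 CPM in control 1, 2 and 3. CKO 1 and 3 were under all controls, while the library labelled CKO 2 was above control 1. Its log2 fold change of -0.55 (SE 0.15, 95% interval -0.87 to -0.22) was the largest among members with a mean of at least 1 CPM, and it missed the threshold (adjusted p = 0.0543). Wnt4 passed in DESeq2 (adjusted p = 0.017), without the library labelled CKO 2 (-0.72, adjusted p = 0.00161) and without control 1 (-0.69, adjusted p = 0.023), and its adjusted p over all alternatives ran from 0.00074 to 0.878. Wnt9b, a ligand of the endocardium that acts on the valve cushions, had 9.05, 10.5 and 9.07 CPM in the CKO libraries and 11, 10.9 and 13.8 CPM in the controls. Every CKO library was under every control, and the log2 fold change was -0.31 (SE 0.13, adjusted p = 0.212). Without the library labelled CKO 2 it was -0.39 (adjusted p = 0.0899). With the ribosomal RNA share as a covariate the log2 fold changes were -0.21 for Wnt4, -0.19 for Wnt5a and -0.11 for Wnt9b. Their adjusted p in that fit were 0.878, 0.803 and 0.938. Every CKO library had more ribosomal RNA than every control, so that fit cannot tell the share from the group.

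The endocardium and the vessels were read through 7 marker genes. Of these, 3 fell (Cdh5, -0.30, Tek, -0.36, and Kdr, -0.26) and none rose (42.9% called, against 4.22% of all tested genes). Npr3 and Nfatc1 were both at -0.18 without a call (adjusted p = 0.193 and 0.138). Pecam1 was at -0.09 (adjusted p = 0.428) and Emcn at 0.06 (adjusted p = 0.717), so the list did not move as one. The summed level of the 7 markers was 1059.7, 1213.5 and 1037 CPM in CKO 1, 2 and 3 and 1241, 1308 and 1298 CPM in control 1, 2 and 3. The library labelled CKO 2 was again the nearest to the controls. The part of these markers in the values of Wnt4 and Wnt9b was not tested. In RNA of whole hearts, fewer cells of a type, less RNA per cell and a change in single genes cannot be told apart.

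The other tested ligands showed no call. Wnt5b, Wnt2, Wnt2b, Wnt9a and Wnt16 had means between 4.09 and 13.7 CPM in each group, and their groups overlapped. Wnt2, which marks the venous pole and the lung mesenchyme, was at 9.08, 11.3 and 6.82 CPM in the CKO libraries and 6.67, 6.93 and 8.57 CPM in the controls. Wnt2b had 8.64, 10.1 and 13.2 CPM in the CKO libraries and 9.76, 10.3 and 11.2 CPM in the controls. Wnt7a, at 0.0552, 1.07 and 0.632 CPM in the CKO libraries and 0.376, 0.442 and 0.427 CPM in the controls, and Wnt10b, rarer still, had wide 95% intervals, from -0.99 to 1.97 and from -2.84 to 1.004 on the log2 scale. The Wnt7a counts were 2, 37 and 25 in the CKO libraries and 15, 17 and 16 in the controls, so the scatter was wide among the CKO libraries. The 6 ligands that did not pass the filter were barely counted. Wnt6 had 7, 5 and 7 counts in the CKO libraries and 15, 0 and 20 in the controls, and Wnt7b had 1, 2 and 13 counts in the CKO libraries and 12, 1 and 2 in the controls. Wnt8a had 6 counts in CKO 3 and 0 in the 5 other libraries. Wnt3 had 1 count in CKO 3 and 4 in control 1, Wnt8b had 2 counts in CKO 1 and 1 in control 1, and Wnt10a had 4 in control 1, with 0 in all other libraries for these 3 genes.

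All 10 Frizzled genes, the receptors for Wnts, were measured and tested, and none was called. Fzd7 stood closest to the threshold. It was at 52.9, 54.1 and 45.8 CPM in CKO 1, 2 and 3 and at 37.6, 42.4 and 45.2 CPM in control 1, 2 and 3. All CKO libraries were above all controls, though CKO 3 and control 3 nearly met. In the fit this gave a log2 fold change of 0.29 (SE 0.08, 95% interval 0.12 to 0.46, adjusted p = 0.0534). It passed in DESeq2 (adjusted p = 0.0342) and without CKO 3 (0.36, adjusted p = 0.0409), missed the threshold when the library labelled CKO 2 was left out (0.24, adjusted p = 0.0775), and its adjusted p over all alternatives ran from 0.0075 to 0.274. With the ribosomal RNA share as a covariate the log2 fold change of Fzd7 was 0.44.

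The 2 most abundant receptors gave narrow intervals around 0. Fzd2 had 174, 158 and 162 CPM in the CKO libraries and 155, 171 and 159 CPM in the controls, and its log2 fold change of 0.03 had a 95% interval of -0.09 to 0.15 (adjusted p = 0.868). Fzd1 had 134, 139 and 131 CPM in the CKO libraries and 141, 121 and 143 CPM in the controls, with a log2 fold change of -0.00 (95% interval -0.13 to 0.13, adjusted p = 0.995). The groups overlapped for both genes. Fzd2 supplied 36.9% ± 1.41 of the summed Frizzled level per kilobase in CKO hearts and 36.8% ± 1.93 in controls, and Fzd1 26.4% ± 0.762 in CKO hearts and 26.8% ± 2.34 in controls (SD, n = 3 each). The Frizzled sum was 122 ± 1.78 CPM per kilobase in CKO hearts and 119.9 ± 2.17 in controls. The log2 fold changes of the 7 other receptors ran from -0.27 (Fzd10) to 0.13 (Fzd5), with adjusted p from 0.389 to 0.904. Of these, Fzd6, a receptor of planar polarity, had 25.2, 21.8 and 25 CPM in the CKO libraries, each under the 27, 27.3 and 26 CPM of the controls, which the fit put at -0.16 on the log2 scale (SE 0.09, adjusted p = 0.389).

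**Figure D2:**
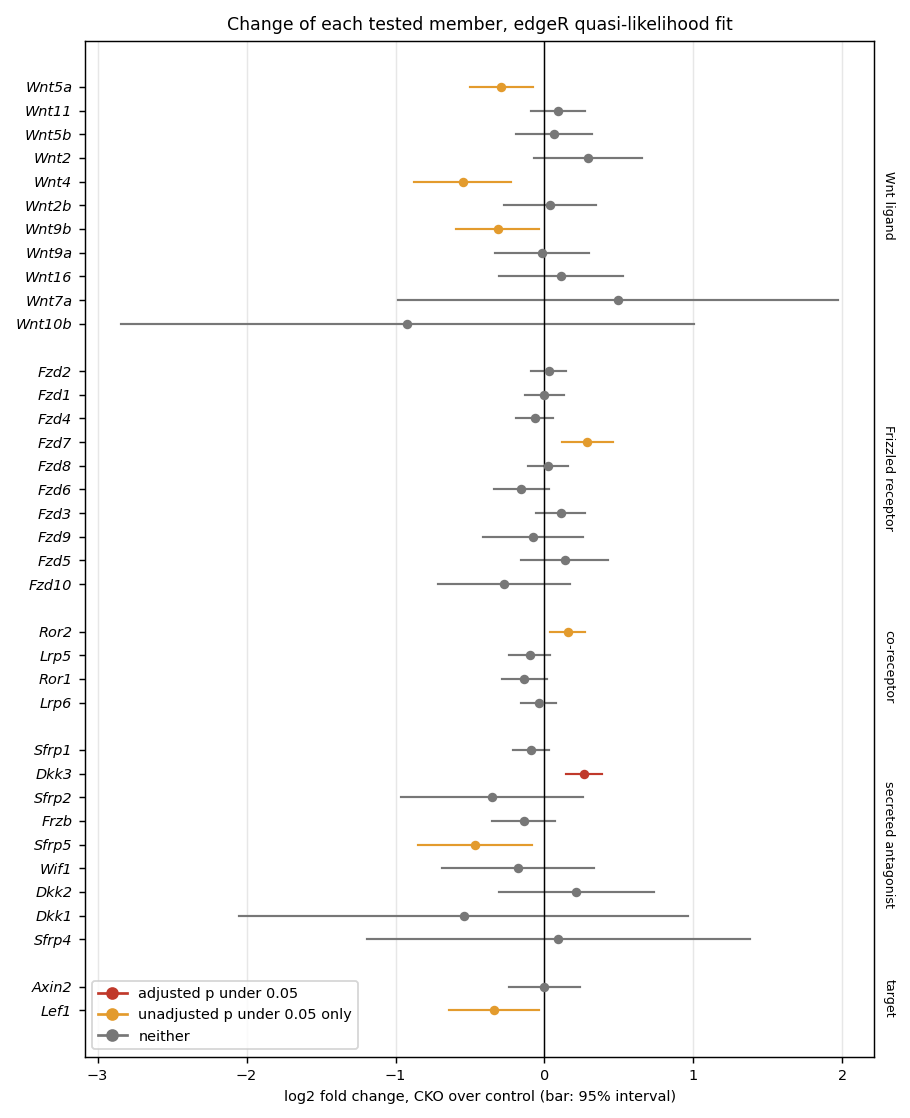
Log2 fold change of each tested member, CKO over control, with its 95% interval, grouped by role as in the plot of levels. Dkk3 alone passes an adjusted p of 0.05, the interval of Axin2 is centred on 0, and Wnt10b has the widest interval, from -2.84 to 1.004.

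Of the co-receptors, Ror2, a receptor tyrosine kinase that takes up Wnt5a, was at 88.8, 90.8 and 91.1 CPM in CKO 1, 2 and 3 and at 83, 84.3 and 75.7 CPM in control 1, 2 and 3. The CKO libraries lay close together and above every control. The fitted log2 fold change was 0.16 (SE 0.06, 95% interval 0.04 to 0.27, adjusted p = 0.136), 0.15 without the library labelled CKO 2 (adjusted p = 0.128) and 0.08 with the ribosomal RNA share as a covariate (adjusted p = 0.883). Its close relative Ror1 was at 57.5, 50.2 and 48.7 CPM in the CKO libraries and 60.1, 55.1 and 56.5 CPM in the controls, with a log2 fold change of -0.13 (adjusted p = 0.346). Ror2 thus supplied 43.1% ± 1.29 of the summed co-receptor level per kilobase in CKO hearts and 39% ± 1.63 in controls (SD, n = 3 each). Those shares did not overlap between the groups (exact permutation test, two-sided, p = 0.1, the smallest possible). Lrp5 and Lrp6, the co-receptors of the beta-catenin branch, overlapped between the groups. Lrp5 had 94.3, 103 and 88.5 CPM in the CKO libraries and 93.8, 109 and 104 CPM in the controls (log2 fold change -0.10, 95% interval -0.24 to 0.04, adjusted p = 0.476). Lrp6 had 119, 134 and 124 CPM in the CKO libraries and 124, 131 and 133 CPM in the controls (log2 fold change -0.04, 95% interval -0.16 to 0.08, adjusted p = 0.801).

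The antagonists held the one call. Dkk3 (ENSMUSG00000030772.6, chromosome 7), a secreted glycoprotein whose effect on Wnt signalling differs between settings, was measured at 242, 223 and 226 CPM in CKO 1, 2 and 3 and at 178, 192 and 203 CPM in control 1, 2 and 3. All CKO libraries were above all controls. The means were 230.1 ± 10.2 CPM in CKO hearts and 191 ± 12.4 CPM in controls (SD, n = 3 each), a log2 fold change of 0.27 (SE 0.06, 95% interval 0.15 to 0.39, adjusted p = 0.0108). Dkk3 supplied 30.2% ± 1.09 of the summed antagonist level per kilobase in CKO hearts and 24% ± 1.68 in controls (exact permutation test, two-sided, p = 0.1, the smallest possible). It kept its call without the library labelled CKO 2 (0.29, adjusted p = 0.0012), but not without control 1 (0.22, adjusted p = 0.114) or control 2 (0.27, adjusted p = 0.0615), nor with the ribosomal RNA share (0.38, adjusted p = 0.116) or Y-linked expression (0.27, adjusted p = 0.0644) as a covariate. Since every CKO library had more ribosomal RNA than every control, that share and the group cannot be told apart. The Y-linked covariate sets control 2 far from the other libraries, so that fit and the one without control 2 are not separate checks.

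Sfrp1, the most abundant member, was at 427, 443 and 380.2 CPM in the CKO libraries and 437, 445 and 448 CPM in the controls. CKO 2 lay inside the control range and CKO 3 well under it, and the log2 fold change was -0.09 (95% interval -0.21 to 0.03, adjusted p = 0.474). Sfrp5, an antagonist of the venous pole and the proepicardium, was at 4.33, 3.69 and 5.53 CPM in the CKO libraries and 6.5, 5.95 and 6.33 CPM in the controls. Its groups did not overlap, and its log2 fold change of -0.47 (SE 0.18, 95% interval -0.85 to -0.09) did not pass (adjusted p = 0.172, and 0.312 without the library labelled CKO 2). The 7 epicardial markers had summed levels of 369 to 409 CPM in CKO hearts and 383 to 404 CPM in controls, so their ranges overlapped.

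Sfrp2, a relative of Sfrp1 found in mesenchyme, varied widely within both groups, with 136, 99.4 and 104 CPM in the CKO libraries and 157, 111 and 166 CPM in the controls. The coefficient of variation was 17.8% in CKO hearts and 20.5% in controls, where the median over the 32 tested members with a mean of at least 1 CPM was 8.99% in CKO hearts and 8.59% in controls. Its log2 fold change of -0.35 had a 95% interval of -0.96 to 0.26 (adjusted p = 0.537). Frzb, an Sfrp relative known from cartilage, had 17.9, 15.3 and 18.1 CPM in the CKO libraries, each under the 18.4, 18.8 and 19.3 CPM of the controls, with a log2 fold change of -0.14 (adjusted p = 0.533). Of 7 cushion mesenchyme markers, Postn fell (-0.29) and Prrx2 rose (0.48), which is 28.6% called, against 4.22% of all tested genes. Prrx1 (0.12), Sox9 (-0.15), Twist1 (-0.26), Scx (-0.31) and Pdgfra (-0.16) were not called. The summed level of the 7 was 793 to 847 CPM in CKO hearts and 883 to 1046 CPM in controls. Most of that sum was Postn, at 473, 507 and 483 CPM in the CKO libraries and 549, 571 and 667 CPM in the controls. The part of these markers in the values of Sfrp2, Frzb and Wnt5a was not tested. Wif1, which binds Wnts directly, and Dkk2, which binds Lrp5 and Lrp6, were between 2.56 and 6.13 CPM in every library and overlapped between the groups. Dkk1 and Sfrp4 stayed under 1 CPM in all 6 libraries.

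**Figure D3:**
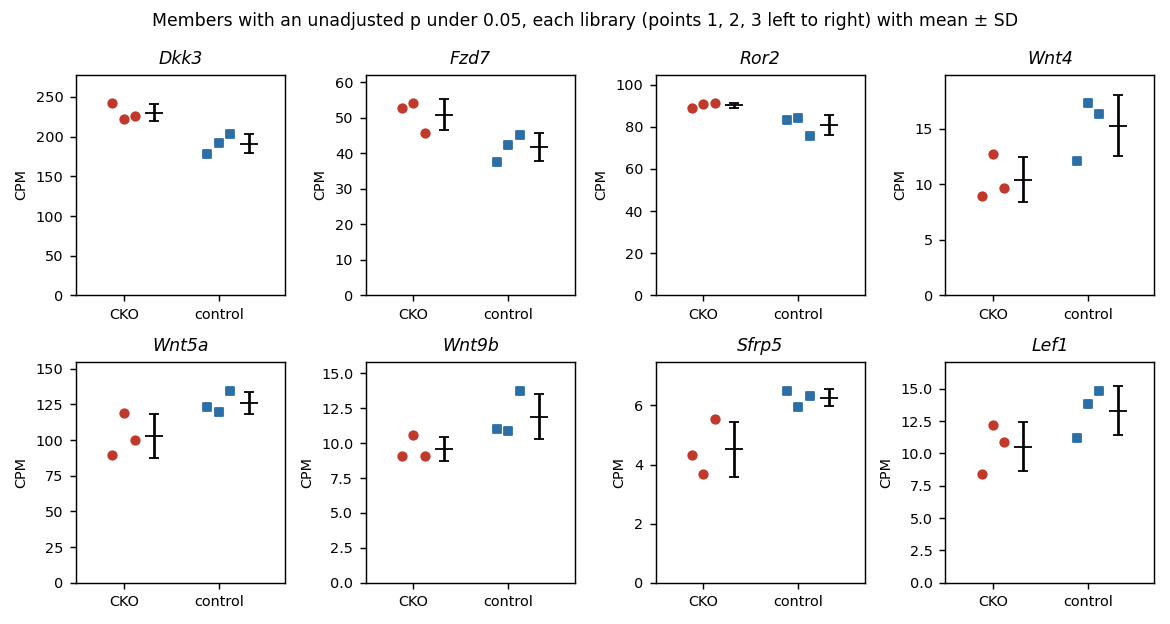
CPM of the 8 members with an unadjusted p under 0.05 in each library, CKO circles left and control squares right, with mean ± SD beside them and axes that start at 0. Dkk3, Fzd7 and Ror2 are higher in all CKO libraries, Wnt5a, Wnt9b and Sfrp5 are lower in all, and Wnt4 and Lef1 overlap through the library labelled CKO 2.

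The target genes gave no call. Axin2, a feedback inhibitor that beta-catenin induces in most tissues, was at 14, 14.9 and 12.9 CPM in CKO 1, 2 and 3 and at 12.47, 14.3 and 15 CPM in control 1, 2 and 3. The groups covered nearly the same range, and the means were 13.9 ± 0.983 CPM in CKO hearts and 13.9 ± 1.32 CPM in controls (SD, n = 3 each). For Axin2 the 95% interval of the log2 fold change ran from -0.24 to 0.24 around -0.00 (SE 0.11, adjusted p = 0.995). Lef1, a transcription factor of the pathway and one of its targets, was at 8.44, 12.2 and 10.9 CPM in the CKO libraries and at 11.2, 13.8 and 14.9 CPM in the controls. CKO 1 and 3 were under every control and the library labelled CKO 2 was above control 1, as for Wnt4. The log2 fold change was -0.34 (SE 0.14, 95% interval -0.64 to -0.03, adjusted p = 0.222). Without the library labelled CKO 2 it was -0.46 (adjusted p = 0.0522). Exons of Lef1 and Axin2 overlap the antisense genes Gm43352 and Gm11670. With the ribosomal RNA share as a covariate the log2 fold changes were 0.00 for Lef1 and 0.17 for Axin2.

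Beyond the members, 58 other genes of Wnt secretion, the beta-catenin machinery, R-spondin signalling and planar polarity were listed, and 55 were tested. Of these, 2 rose and 1 fell (5.45%, against 4.22% of all tested genes), the groups did not overlap in 17 (30.9%, against 22.1% of all tested genes), and the median log2 fold change was 0.02. Members and list genes share the same 6 libraries. Kremen1, a receptor for Dickkopf proteins that clears Lrp5 and Lrp6 from the cell surface, was at 192, 176 and 192 CPM in CKO 1, 2 and 3 and at 149, 156 and 143 CPM in control 1, 2 and 3. The groups were well apart. Its log2 fold change was 0.32 (SE 0.05, 95% interval 0.21 to 0.44, adjusted p = 0.00174), and it was called in all 6 fits that left out a library (adjusted p up to 0.0294) but not with the ribosomal RNA share as a covariate (0.30, adjusted p = 0.286). Sost encodes sclerostin, a secreted antagonist that binds Lrp5 and Lrp6 and is best known from bone. It was at 12.2, 16.3 and 10.5 CPM in the CKO libraries and 7.2, 8.93 and 9.48 CPM in the controls, each CKO library above each control. For Sost the log2 fold change was 0.61 (SE 0.16, adjusted p = 0.0382), and of the 6 fits that left out a library the call was made only in that without CKO 3. It was 0.41 without the library labelled CKO 2 (adjusted p = 0.0915) and 0.49 without control 1 (adjusted p = 0.176).

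Gpc3, a glypican of the cell surface that binds Wnts, was at 633, 693 and 627 CPM in the CKO libraries and at 746, 751 and 767 CPM in the controls. No CKO library reached a control, and the log2 fold change was -0.21 (SE 0.05, adjusted p = 0.0311). The call was made in 2 of the 6 fits that left out a library, those without CKO 1 or CKO 2, and was lost without CKO 3 (-0.19, adjusted p = 0.209) or any 1 of the controls. Gpc3 lies on the X chromosome, and Xist, the transcript of the inactive X of females, had 15232, 7 and 4 counts in the CKO libraries and 24633, 36330 and 17569 in the controls. The part of the embryos' sex in the value of Gpc3 was not tested. With Y-linked expression as a covariate, a fit that leans on control 2, its log2 fold change was -0.22 (adjusted p = 0.113). It was -0.22 without control 2 as well (adjusted p = 0.097). The next 3 genes of the list by adjusted p, chosen after their values were seen, were not called. Nkd1, a feedback inhibitor of Dishevelled, had a log2 fold change of -0.37 (adjusted p = 0.0518). It was called lower in DESeq2, without scaling, without a filter on low counts, with a minimum of 1 CPM and without CKO 2. Ctnnbip1, which blocks beta-catenin from TCF factors, was at 0.29 (adjusted p = 0.0541). It was called higher in DESeq2, without a filter, with a minimum of 1 CPM and without CKO 2. The planar polarity cadherin gene Celsr2 was at -0.28 (adjusted p = 0.0586) and was called lower in DESeq2 and without scaling.

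**Figure D4:**
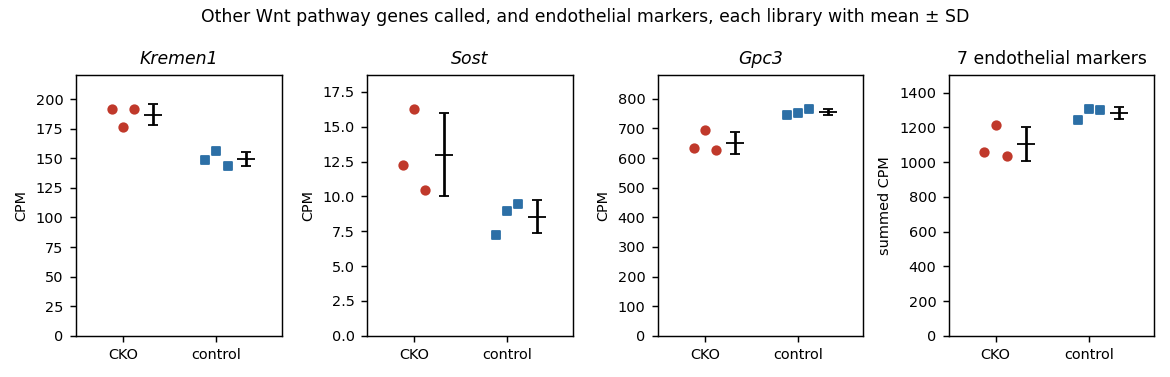
CPM of Kremen1, Sost and Gpc3, the called genes among the other Wnt pathway genes, and the summed CPM of 7 endothelial markers, in each library with mean ± SD, CKO left and control right. In each panel the 3 CKO libraries lie on one side of the 3 controls.

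Marker genes placed the source of the RNA. Cardiomyocyte markers (7 genes) summed to between 17617 and 18967 CPM in CKO hearts and between 17174 and 18147 CPM in controls. Markers of lung bud and foregut summed to at most 0.966 CPM in CKO hearts and 0.928 CPM in controls, those of liver to at most 0.69 CPM in CKO hearts and 0.935 CPM in controls, and those of limb and body wall muscle to at most 0.814 CPM in CKO hearts and 1.149 CPM in controls, so the markers of these neighbouring tissues were at or near 0. Neural crest and nerve markers summed to between 24 and 26.8 CPM in CKO hearts and between 20.02 and 26.8 CPM in controls. Erythroid markers summed to between 922 and 1029 CPM in CKO hearts and between 1031 and 1796 CPM in controls, without a call among 6 genes. Of 5 macrophage markers 2 rose (C1qa, 0.66, and C1qb, 0.44), which is 40% called, against 4.22% of all tested genes. Csf1r (0.29, adjusted p = 0.0855), Cx3cr1 (0.24, adjusted p = 0.274) and Adgre1 (0.24, adjusted p = 0.522) were not called. The summed level of the 5 was 77.2 to 88.9 CPM in CKO hearts and 64.9 to 66.4 CPM in controls. Of the 7 cardiomyocyte markers Myh6 alone was called higher (0.33), and of the 7 epicardial markers Krt19 alone (0.59), which is 14.3% of each list.

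**Figure D5:**
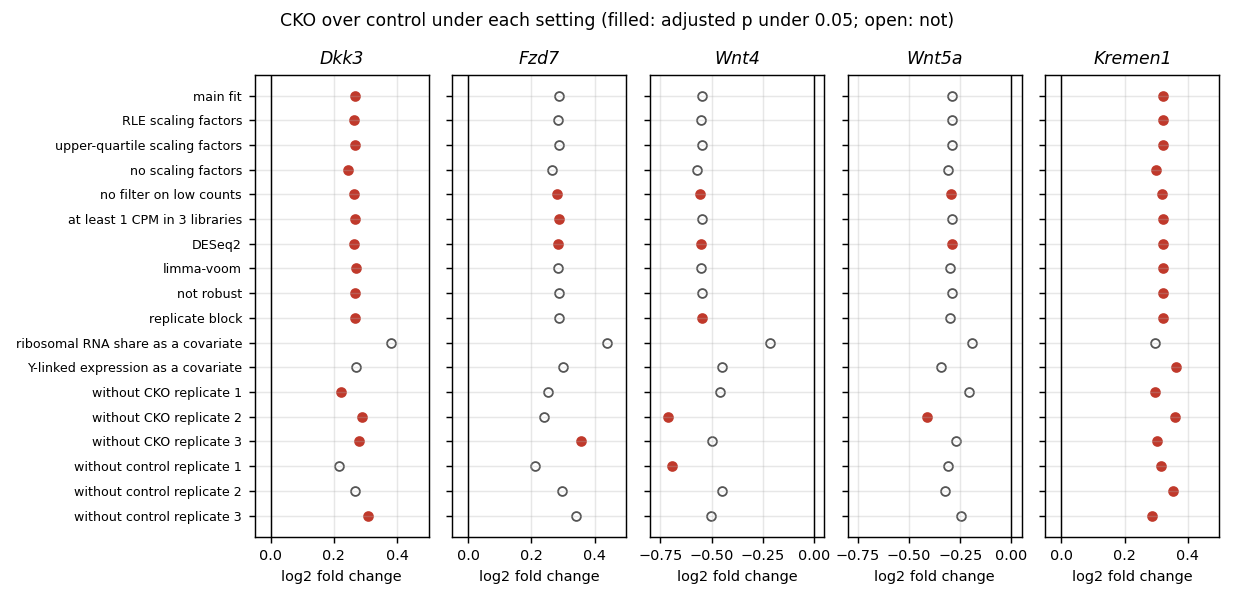
Log2 fold change, CKO over control, of 5 genes under the main fit and each of 17 alternatives, filled where the adjusted p was under 0.05. Each gene keeps its sign throughout, Kremen1 is filled in all but 1 setting, and Wnt4 and Wnt5a fill without the library labelled CKO 2.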

How the data were processed

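RNA from E12.5 hearts (500 ng per library, per the labels' protocols) was made into NEBNext Ultra libraries and sequenced on an Illumina HiSeq. The authors deposited raw read counts per gene for 6 libraries in 1 table, with the build mm10 named per the submitters' processing notes. For the aligner, the counting tool and its strand setting, the labels name none. Depth was 34400841 to 39763233 counts per library. Of the rows, 24 are named as calendar dates (0.147% of counts) and stayed in.

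Groups followed the titles. Counts were tested with edgeR 4.0.16 in R 4.3.3 (filterByExpr, minimum count 10; TMM; robust quasi-likelihood fit with group as the only term; two-sided; Benjamini-Hochberg over 17557 genes; threshold 0.05). Every adjusted p in the text is from this test unless another tool is named. Intervals are the log2 fold change ± the 95% t quantile times the SE. CPM used TMM-scaled library sizes, and CPM per kilobase the union exon length of GENCODE M21. Alternatives included DESeq2 1.42.0 and limma 3.58.1 (voom). The fit was tested on simulated data.

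Members and gene lists were chosen with earlier results of these data known. Genes given in full by rule were the called members, those with an unadjusted p under 0.05, the 2 with the highest level in each role, and the called genes of the other Wnt pathway list. Library values of Wnt2, Wnt2b, Wnt7a, Fzd6, Ror1, Lrp6, Sfrp2 and Frzb, and counts of untested ligands, were given outside that rule. The shares of a role, coefficients of variation and promoter motif were added after values were seen. Besides the shares given with a p-value, the exact permutation test was run for Wnt5b, Fzd2, Fzd1, Fzd4, Sfrp1, Sfrp2, Lrp5 and Ror1. None of these reached the smallest p possible (0.2 for Fzd4, Sfrp2, Lrp5 and Ror1, 0.3 for Wnt5b, 0.6 for Sfrp1, 0.8 for Fzd1). No 2 libraries of the same group agreed within sampling noise, and pairs across the groups were not examined.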

Additional observations from a re-analysis of the deposited data

How the results depend on the processing

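Each count and named gene was recomputed under 17 alternatives, and the cause of a difference was not tested. Members called higher (1 in the fit reported) numbered 2 without a filter on low counts, with a minimum of 1 CPM and in DESeq2, and 0 with the ribosomal RNA share or Y-linked expression as a covariate, and ranged from 0 to 2 with 1 library left out. Members called lower (0) numbered 2 without a filter (Wnt4 and Wnt5a) and 2 in DESeq2, and ranged from 0 to 2 with 1 library left out, the 2 without CKO 2. Other Wnt pathway genes called higher (2) numbered 3, with Ctnnbip1, without a filter, with a minimum of 1 CPM and in DESeq2, 1 without scaling, in limma-voom, in the fit that was not robust and with Y-linked expression, 0 with the ribosomal RNA share, and 1 to 2 with 1 library left out. Those called lower (1) numbered 3 without scaling and in DESeq2, with Nkd1 and Celsr2, and 2 without a filter and with a minimum of 1 CPM, with Nkd1. They numbered 0 in the fit that was not robust and with either covariate, and 0 to 3 with 1 library left out. Over all genes, 540 called higher of 17557 tested became 820 of 30619 without a filter and 747 in DESeq2. They became 57 with the ribosomal RNA share and 300 with Y-linked expression. With 1 library left out they ranged from 268 of 18030 (without CKO 3) to 1008 of 18185 (without CKO 2). The 201 called lower became 383 without a filter, 321 in DESeq2, 3 with the ribosomal RNA share, 47 with Y-linked expression, and 41 (without CKO 3) to 569 (without CKO 2). The settings that called Wnt4 and Wnt5a, DESeq2, no filter and no CKO 2, thus raised the number of calls over all genes as well.

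Among the 18 named genes, 4 turned sign under an alternative. The log2 fold change of Lef1 was 0.00033 with the ribosomal RNA share. That of Axin2 was 0.17 with that share and 0.018 with Y-linked expression, and -0.081 to 0.049 with 1 library left out. That of Fzd1 was 0.0019 in limma-voom and 0.0021 with a replicate block, and -0.077 to 0.039 with 1 library left out, and that of Fzd2 was -0.019 to 0.067. Of the other values of these genes, 257 kept direction and side of the threshold, 14 passed it and 22 lost it. The replicate block gave 1 member called lower (Wnt4), but deviations of same-numbered libraries correlated at -0.00 to 0.02, so the numbers do not pair them. Of the 22 other tested members, 9 took both signs with 1 library left out, among them Wnt7a (-0.26 to 1.02) and Dkk2 (-0.07 to 0.41).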
